A study of Arabidopsis thaliana with 24 samples.

Results

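Calcium sensor proteins are represented here by 4 Arabidopsis genes, of the 22746 probe sets tested in the series. The genes, taken by name with earlier results of these data known, are CML38 (AT1G76650), AT1G76640, CML41 (AT3G50770) and CBL1 (AT4G17615). Each was read by 1 probe set of the Affymetrix ATH1 array. The probe sets of CML38, AT1G76640 and CML41 carry these names in the platform annotation, whereas that of CBL1 was named through the locus column of a supplementary table. Plants of the Col-0 accession were grown for 7 days on solid Johnson medium with 2% sucrose, either with 2 mM Pi (+Pi) or without added Pi (−Pi), and shoots and roots were processed separately. Wild type was grown on both media, the phr1 mutant and the phr1 phl1 mutant on −Pi alone, so that the arrays fell into 8 groups of 3 independent biological samples, 24 in all: wild type +Pi, wild type −Pi, phr1 −Pi and phr1 phl1 −Pi, each as shoots and as roots. The phr1 mutation affects PHR1, a transcription factor of the MYB-CC family that acts in Pi starvation signalling, and in phl1 a T-DNA interrupts the coding region of the related gene PHL1. Values are RMA signals on the log2 scale, so that a difference of 1 is a 2-fold change. A gene was called changed when it passed an adjusted p of 0.05 and a 2-fold difference in a limma fit over all probe sets.

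A rise of free calcium in the plant cell is read by proteins with EF-hand motifs, which change shape when they bind calcium. Calmodulins and calmodulin-like (CML) proteins have no catalytic activity of their own and act by binding target proteins. Calcineurin B-like (CBL) proteins bind and activate a family of protein kinases, the CBL-interacting kinases (CIPK). CML38 is known as a gene of wounding and low-oxygen responses, and its protein is found in cytoplasmic granules. CML41 encodes a protein of the plasmodesmata, the channels between plant cells, that acts in callose deposition during immune responses. CBL1 encodes a sensor of the plasma membrane, known from salt, drought and potassium responses, where it activates CIPK23. AT1G76640 lies next to CML38 on chromosome 1 with 0 annotated genes between them, and RefSeq lists it also under the name CML39, a name it gives to CML37 (AT5G42380) as well. Sequences and coordinates of the members were not analysed here, and cross-hybridization between probe sets of related genes was not tested.

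The arrays labelled phr1 phl1 stood apart in PHL1 itself. The PHL1 signal was 7.64, 8.36 and 7.06 in the 3 shoot arrays with this label and 8.55, 9.31 and 9.18 in the 3 root arrays, and between 4.34 and 6.06 in all other arrays. The signal of the disrupted gene was thus higher, not lower, under this label; the position of its probes within the gene, before or after the insertion, was not analysed here, and probes that miss the interrupted stretch say nothing on the genotype. Below, phr1 phl1 shoots or roots stands for these 6 arrays by their label alone. PHR1 had no matched probe set. SPX1, a known marker of Pi starvation, rose by 4.44 in wild type shoots and by 6.0 in wild type roots at −Pi (adjusted p = 5.69e-10 and 1.79e-11 from limma). Its mean in starved roots was 11.71 in wild type, 10.93 in phr1 and 8.13 under the phr1 phl1 label, and in starved shoots 11.23, 9.90 and 9.29. The organs were told apart by 3 of 3 green tissue markers (RCA, Rubisco activase, and the photosystem I genes PSAE-1 and PSAN), whose mean signal lay between 12.05 and 12.46 in shoot arrays and between 5.64 and 8.22 in root arrays; the arrays of phr1 phl1 roots held the upper part of that range, 7.43 to 8.22, and the other root arrays reached 6.95. The root hair expansin gene EXPA7 had a mean of at least 6.95 in every root group and at most 4.61 in every shoot group; the other measured root marker, PYK10, parted the organs less, with means of 12.66 to 12.91 in roots and 11.17 to 11.75 in shoots. The correlation between arrays of a group lay between 0.966 and 0.996, and the number of arrays limits the precision. In bulk organs, fewer cells of a type and less RNA per cell cannot be told apart.

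All 4 genes rose in wild type shoots at −Pi, and in wild type roots CBL1 alone passed the test. The shoot rise was 7.64-fold for CML38, 3.50-fold for CML41 and 3.09-fold for CBL1, and 2.63 on the log2 scale for AT1G76640. Among all probe sets, 8.26% were called higher in this comparison, and 37% passed the adjusted p at any fold. The genes were chosen with earlier results of these data known, so counts of them beside such shares, here and below, are descriptions only. In roots 1 of 4 genes was called higher, beside 3.05% of all probe sets (12.1% by the adjusted p alone), with a 3.59-fold rise of CBL1. In shoots the 3 starved arrays lay above the 3 fed arrays for 4 of 4 genes, where 43.2% of all probe sets had groups that did not overlap in either direction; in roots this held for 2 of 4 genes, CML41 and CBL1, beside 37.5%. The plot of signals by array gives these values beside those of the mutants, in which each gene had its own pattern.

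**Figure D1:**
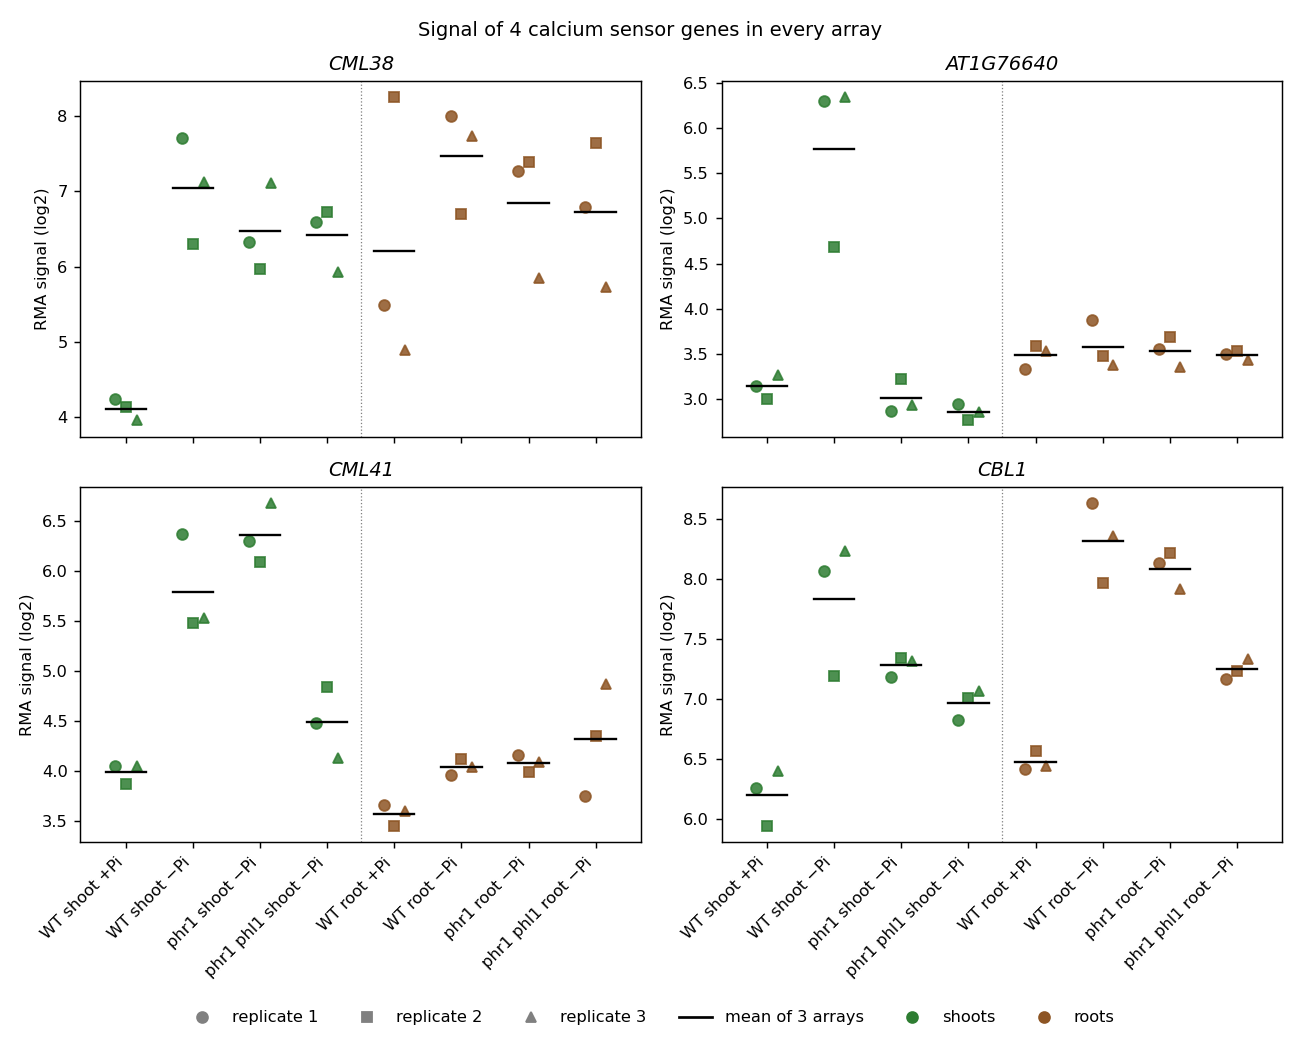
RMA signal (log2, vertical axis) of the 4 genes in each of the 24 arrays; groups are on the horizontal axis with shoots in green and roots in brown, marker shapes are the replicate numbers and bars the means of 3 arrays. The fed wild type shoots are lowest among shoot groups for CML38, CML41 and CBL1. AT1G76640 is raised in starved wild type shoots only, and CML41 is highest in starved wild type and phr1 shoots.

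CML38 was at its lowest in fed wild type shoots, with signals of 4.24, 4.13 and 3.96, and reached 7.70, 6.30 and 7.13 in starved wild type shoots. The groups lay fully apart, and the rise was 2.93 on the log2 scale (standard error 0.67, 95% interval 1.53 to 4.33, adjusted p = 0.00157 from limma, 3 arrays per group). Starved phr1 shoots gave 6.33, 5.97 and 7.12, and starved phr1 phl1 shoots 6.60, 6.72 and 5.93. Both mutants thus overlapped with starved wild type and lay above every fed wild type array. The difference from starved wild type was −0.57 in phr1 (95% interval −1.97 to 0.83, adjusted p = 0.60) and −0.63 in the arrays labelled phr1 phl1 (−2.03 to 0.77, adjusted p = 0.54), and these intervals include falls of more than 2-fold. Against fed wild type shoots, CML38 was 5.15-fold higher in starved phr1 (adjusted p = 0.0125) and 4.95-fold higher in starved phr1 phl1 (adjusted p = 0.0153). Each of these rests on single arrays: without replicate 3 of the phr1 shoots the adjusted p was 0.0573, and without replicate 2 of the phr1 phl1 shoots 0.0539, with differences of 2.04 and 2.15.

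In roots CML38 varied more between arrays of a group than any other member. Fed wild type roots gave 5.49, 8.25 and 4.90, with replicate 2 above all 3 starved wild type root arrays, which gave 8.0, 6.71 and 7.73. The groups overlapped, the SD of the fed group was 1.79, and the difference of 1.26 did not pass the test (95% interval −0.14 to 2.67, adjusted p = 0.27). Without replicate 2 of the fed wild type roots the difference was 2.28 and passed (adjusted p = 0.0109). Starved phr1 roots gave 7.27, 7.40 and 5.86 and starved phr1 phl1 roots 6.80, 7.65 and 5.73, both overlapping with both wild type groups. In fed wild type, roots had 4.30-fold more CML38 signal than shoots (adjusted p = 0.0136), which fell to a difference of 1.08 and an adjusted p of 0.126 without the same replicate. In the 3 starved genotypes the organs differed by 0.31 to 0.43, with adjusted p from 0.65 to 0.75.

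AT1G76640 had a raised signal in a single group. Its signals were 6.30, 4.68 and 6.34 in starved wild type shoots, against 3.15, 3.01 and 3.27 in fed wild type shoots. The rise of 2.63 (standard error 0.28, 95% interval 2.04 to 3.21, adjusted p = 3.21e-07) was carried by all 3 arrays, with replicate 2 the lowest of its group. Starved phr1 shoots gave 2.87, 3.23 and 2.94 and starved phr1 phl1 shoots 2.94, 2.77 and 2.86, levels within or below the range of fed wild type. These are among the lowest signals of the array: the mean of AT1G76640 over the 24 arrays, 3.61, lay within the lowest 25% of probe sets (limit 3.68). Detection above background was not analysed here, so its differences are given on the log2 scale as measured and not as folds. The difference from starved wild type was −2.76 in phr1 (standard error 0.28, adjusted p = 2.15e-07) and −2.91 in phr1 phl1 (adjusted p = 7.13e-08). The 2 mutants differed from each other by −0.16 (95% interval −0.74 to 0.43, adjusted p = 0.96). Against fed wild type shoots the difference was −0.13 in phr1 (−0.71 to 0.46) and −0.29 in phr1 phl1 (−0.87 to 0.30), intervals that hold no rise of 2-fold.

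Root arrays of AT1G76640 lay between 3.34 and 3.88, whatever the genotype or medium. The 4 root groups had means of 3.49 (fed wild type), 3.58 (starved wild type), 3.54 (phr1) and 3.49 (phr1 phl1), and neighbours in this order overlapped. Pi starvation gave a difference of 0.09 in wild type roots (95% interval −0.49 to 0.68, adjusted p = 0.89). The effect of Pi starvation was lower in roots than in shoots by 2.54 (standard error 0.39, adjusted p = 1.33e-04 from limma's interaction contrast), so here the difference between organs was itself past the threshold. Roots differed from shoots by −2.19 in starved wild type (adjusted p = 1.37e-06), whereas in the other 3 conditions roots lay above shoots by 0.34 to 0.63, with adjusted p from 0.073 to 0.34.

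CML41 separated the mutants in shoots. Fed wild type shoots gave 4.05, 3.87 and 4.05 and starved wild type shoots 6.37, 5.49 and 5.53, a rise of 1.81 (standard error 0.25, 95% interval 1.29 to 2.32, adjusted p = 7.18e-06). Starved phr1 shoots gave 6.30, 6.09 and 6.68, as high as or higher than starved wild type, with a difference of 0.57 that did not pass the test (0.05 to 1.08, adjusted p = 0.090; 0.0349 with the phr1 phl1 arrays left out of the fit). The arrays labelled phr1 phl1 gave 4.48, 4.84 and 4.13, below every starved wild type and phr1 array. Their signal was 2.48-fold lower than in starved wild type (−1.31, adjusted p = 2.30e-04) and 3.67-fold lower than in phr1 (−1.88, 95% interval −2.39 to −1.36, adjusted p = 2.98e-04). With the 6 arrays of the 2 mutants fitted alone, the last difference missed the threshold (adjusted p = 0.0904). Against fed wild type, CML41 was 5.18-fold higher in phr1 shoots (2.37, adjusted p = 7.41e-07), while the phr1 phl1 shoots lay above by 0.50 (−0.02 to 1.01, adjusted p = 0.16).

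CML41 signal in roots was low, and no difference between root groups passed both limits in the main fit. Wild type roots gave 3.66, 3.44 and 3.60 at +Pi and 3.96, 4.12 and 4.04 at −Pi, groups that did not overlap but differed by 0.47, which did not pass (95% interval −0.04 to 0.99, adjusted p = 0.25). Over the refits of the model, the adjusted p from limma for this wild type difference ran from 0.0152 to 0.28. Phr1 roots gave 4.15, 3.99 and 4.09 and phr1 phl1 roots 3.75, 4.35 and 4.87. The phr1 phl1 roots lay 0.75 above fed wild type roots (adjusted p = 0.0441 from limma), past the p threshold and under the 2-fold limit. Over the refits this adjusted p ran from 0.00741 to 0.102. The effect of Pi starvation was lower in roots than in shoots by 1.33 (adjusted p = 0.00976 from limma's interaction contrast). The phr1 phl1 difference from starved wild type was −1.31 in shoots and 0.28 in roots (adjusted p = 0.60 in roots from limma). Given as roots minus shoots, the interaction contrast was 1.59 (adjusted p = 0.00197), a fall in shoots that was not seen in roots. CML41 had 3.38-fold less signal in roots than in shoots in starved wild type and 4.86-fold less in starved phr1 (adjusted p = 4.58e-06 and 1.35e-07). Detection above background was not analysed here. These folds, and those against fed wild type shoots (mean 3.99), are therefore ratios of the signal as measured. In the phr1 phl1 arrays the organs differed by −0.16 (−0.68 to 0.35), and these root arrays are those with the higher green tissue marker signal given above, whose part in this value was not tested.

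CBL1 rose in both organs. Shoot signals in wild type were 6.26, 5.94 and 6.40 at +Pi and 8.07, 7.19 and 8.23 at −Pi, and root signals 6.42, 6.56 and 6.44 at +Pi and 8.63, 7.97 and 8.36 at −Pi. In either organ the starved arrays lay above the fed arrays, by 1.63 in shoots (standard error 0.20, 95% interval 1.21 to 2.05, adjusted p = 2.45e-06) and by 1.84 in roots (1.42 to 2.27, adjusted p = 2.13e-06). The rises differed between the organs by 0.22 (−0.38 to 0.81, adjusted p = 0.69).

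CBL1 was lower than in starved wild type past the p threshold in 3 of 4 mutant groups, the exception being phr1 roots. Starved phr1 shoots gave 7.19, 7.34 and 7.32, at the lower end of starved wild type, and phr1 phl1 shoots 6.83, 7.01 and 7.07, below all 3 starved and above all 3 fed wild type arrays. The difference from starved wild type shoots was −0.55 in phr1 (adjusted p = 0.0442) and −0.87 in phr1 phl1 (adjusted p = 0.00184). Both stayed under the 2-fold limit. The phr1 difference missed the p threshold with the phr1 phl1 arrays left out (adjusted p = 0.0769). It also missed with the 2 groups fitted alone with the replicate number as a block (0.131). Over the refits of the model, the highest adjusted p from limma was 0.242 for phr1 and 0.0568 for phr1 phl1. Each difference thus missed the p threshold in some setting. Without replicate 2 of the starved wild type shoots the phr1 phl1 difference was −1.19 and was called. In roots, phr1 gave 8.13, 8.21 and 7.92, within the range of starved wild type or just below it (−0.23, 95% interval −0.66 to 0.19, adjusted p = 0.72), and phr1 phl1 gave 7.17, 7.23 and 7.34. The phr1 phl1 root arrays lay below all starved wild type and phr1 root arrays, with −1.07 against wild type (standard error 0.20, adjusted p = 8.66e-04, past the 2-fold limit) and −0.84 against phr1 (1.79-fold lower, adjusted p = 0.0184, under the 2-fold limit). The call against wild type was lost without replicate 1 of the starved wild type roots, where the difference was −0.92 with an adjusted p of 0.00897. The phr1 phl1 root arrays also had the higher green tissue marker signal given above, and its part in these CBL1 values was not tested.

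Against fed wild type, CBL1 stayed higher in every starved mutant group. The rise was 2.11-fold in phr1 shoots (adjusted p = 4.98e-04) and 3.06-fold in phr1 roots (adjusted p = 1.42e-05), both called. In phr1 phl1 it was 1.70-fold in shoots and 1.71-fold in roots (adjusted p = 0.00845 and 0.0129), past the p threshold and under the 2-fold limit. The call in phr1 shoots was lost without replicate 2 of the fed wild type shoots, at a difference of 0.95 (adjusted p = 0.00376).

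**Figure D2:**
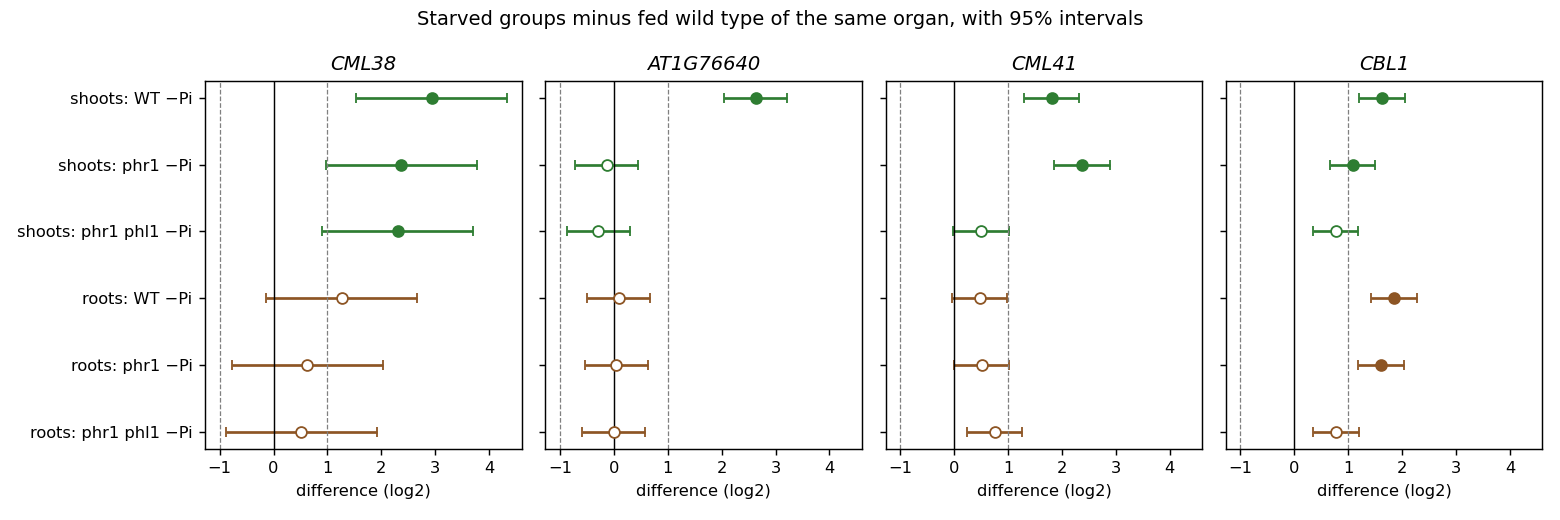
Difference of each starved group from fed wild type of the same organ (log2, horizontal axis) for the 4 genes; points are limma estimates from 3 arrays per group, bars 95% intervals, filled points passed both limits and dashed lines mark 2-fold. In shoots, CML38 kept a difference of 2.31 to 2.37 in the mutants, AT1G76640 lay at −0.13 and −0.29, CML41 lay at 2.37 in phr1 and at 0.50, which did not pass, in phr1 phl1, and CBL1 lay at 1.08 and 0.76.

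Counted over the 4 genes, more calls fell in shoots than in roots. Over all probe sets the comparisons with starved wild type leaned the same way. The comparisons with wild type share the starved or the fed wild type arrays, and those between the mutants use the same mutant arrays again. Each gene is therefore given by its own values. In phr1 shoots against starved wild type, 1 of 4 genes was called lower, AT1G76640, beside 6.63% of all probe sets; 2 of 4 passed the adjusted p alone (31.8%) and 1 of 4 had groups that did not overlap (35%). In phr1 phl1 shoots 2 of 4 were called lower, AT1G76640 and CML41, beside 8.2%; 3 of 4 passed the adjusted p (37%) and 3 of 4 did not overlap (41.5%), the exception in both being CML38. Between the mutants in shoots 1 of 4 was called lower in phr1 phl1, CML41, beside 0.563%, and it alone passed the adjusted p (1.65%), while 2 of 4 did not overlap (13.2%).

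In roots the calls were fewer. Over all probe sets the shares called lower than in starved wild type were smaller in roots too. They were 0.919% in roots beside 6.63% in shoots for phr1, and 2.19% beside 8.2% for phr1 phl1. Between the mutants the shares ran the other way, with 0.809% called lower in roots beside 0.563% in shoots. In phr1 roots 0 of 4 were called, beside 1.49% called higher and 0.919% lower; 0 of 4 passed the adjusted p (5.39%) or reached an unadjusted p of 0.05, and 0 of 4 had groups apart (29.7%). In phr1 phl1 roots 1 of 4 was called lower, CBL1, beside 2.19%, and it alone passed the adjusted p (13.1%) and did not overlap (33.6%). Between the mutants in roots 0 of 4 were called, beside 0.98% higher and 0.809% lower; CBL1 alone passed the adjusted p (4.1%) and did not overlap (22.5%).

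Against fed wild type the phr1 arrays held more of the rises than the phr1 phl1 arrays, a difference in counts that was not tested. In phr1 shoots 3 of 4 genes were called higher, beside 4.33% of all probe sets, the same 3 passing the adjusted p (25.3%) and not overlapping (34%), with AT1G76640 the exception. In phr1 phl1 shoots 1 of 4 was called higher, CML38, beside 3.99%; 2 of 4 passed the adjusted p (24.6%) and 4 of 4 did not overlap (36.2%), AT1G76640 lying below. In phr1 roots 1 of 4 was called higher, CBL1, beside 3.39%, and it alone passed the adjusted p (13.5%), while CML41 and CBL1 did not overlap (38.5%). In phr1 phl1 roots 0 of 4 were called, beside 3.54% higher and 1.75% lower; CML41 and CBL1 passed the adjusted p (14.7%) and did not overlap (33.7%). The mutants have no arrays at +Pi, so that genotype and medium cannot be told apart in these last values.

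**Figure D3:**
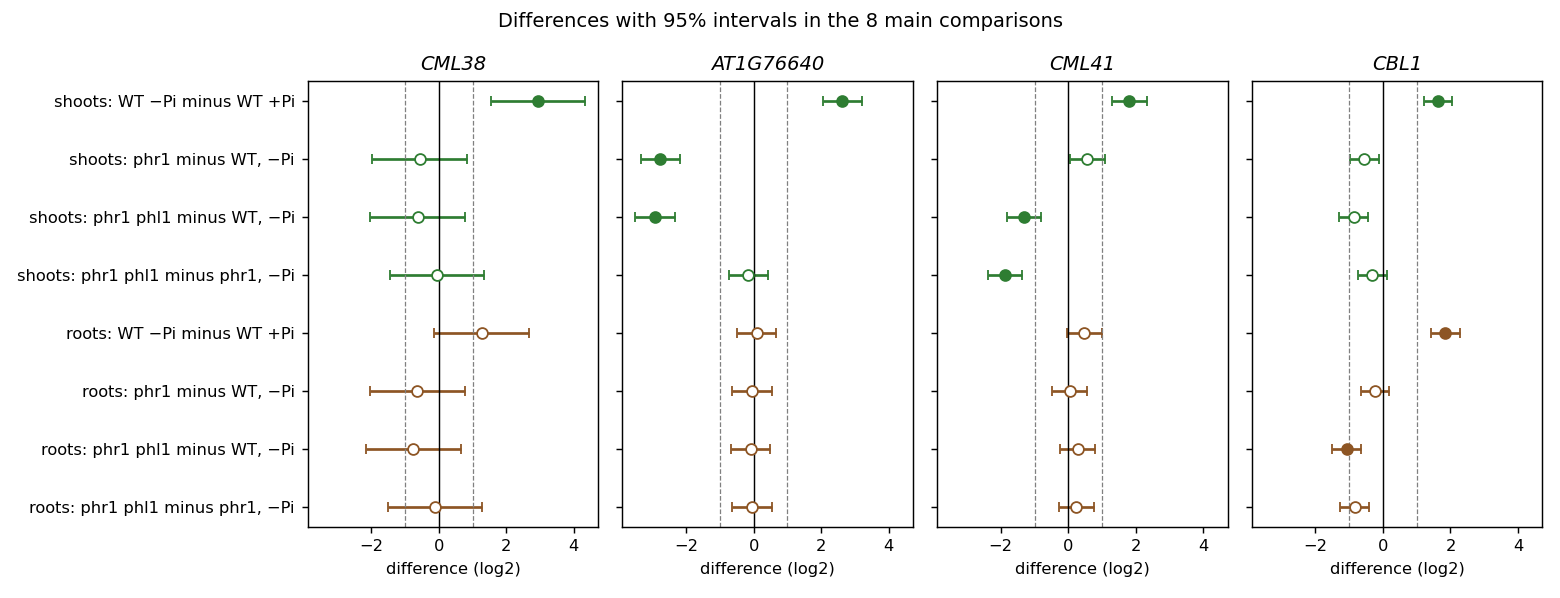
Differences (log2, horizontal axis) of the 4 genes in the 8 main comparisons, with shoots in green and roots in brown; points are limma estimates from 3 arrays per group, bars 95% intervals, filled points passed both limits and dashed lines mark 2-fold. Filled points to the left of 0 are AT1G76640 in both mutants and CML41 in phr1 phl1 in shoots, and CBL1 in phr1 phl1 in roots.

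The order of the groups also differed between the genes. For CML38 the 7 groups other than fed wild type shoots formed an overlapping series with means from 7.48 in starved wild type roots to 6.21 in fed wild type roots. For AT1G76640 a gap of 2.19 parted starved wild type shoots from the next group. For CML41, phr1 shoots (mean 6.36) and starved wild type shoots (5.79) overlapped at the top and were parted by 1.31 from phr1 phl1 shoots. For CBL1 the order ran from starved wild type roots (8.32), phr1 roots (8.09) and starved wild type shoots (7.83) down to fed wild type shoots (6.20), with the upper 5 groups overlapping from neighbour to neighbour. In roots against shoots, 1 of 4 genes was called higher in fed wild type (11.6% of all probe sets), CML38. In starved wild type 2 of 4, AT1G76640 and CML41, were called lower (12.2%), in starved phr1 1 of 4, CML41, was called lower (11.6%), and in starved phr1 phl1 0 of 4 were called (12.5% higher and 11.5% lower), with 1 of 4 at an unadjusted p under 0.05. By the interaction contrasts, 2 of 4 had a lower Pi starvation effect in roots than in shoots (5.82% of all probe sets). Roots minus shoots, the phr1 contrast was positive and called for 1 of 4 (6.18%) and the phr1 phl1 contrast for 2 of 4 (7.75%). These positive values came with falls in shoots and smaller differences in roots. AT1G76640 differed from starved wild type by −2.76 (phr1) and −2.91 (phr1 phl1) in shoots, and by −0.04 and −0.09 in roots.

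Replicate 2 of the starved wild type shoots was the lowest array of its group for 4 of 4 genes. It deviated from the group mean by −1.09 for AT1G76640, −0.74 for CML38, −0.64 for CBL1 and −0.31 for CML41, and for SPX1 it was the lowest as well (10.58 against 11.49 and 11.61). Over all probe sets it was the lowest of its group for 34.4%, among those called higher in starved wild type shoots for 37.9%, and among those called lower for 58%. Its estimated array weight, 0.203, was the lowest of the 24. Without this array the 4 shoot rises were larger, 3.31 for CML38, 3.17 for AT1G76640, 1.96 for CML41 and 1.95 for CBL1, and 4 of 4 were still called. Over the 24 arrays, deviations from the group means correlated with r = 0.85 between AT1G76640 and CBL1. The points share their arrays, and the value is a description. It rests largely on the 3 starved wild type shoot arrays. There AT1G76640 deviated by 0.52, −1.09 and 0.57 and CBL1 by 0.24, −0.64 and 0.40. In the other groups AT1G76640 deviated by at most 0.30. The other 5 pairs of genes had r between 0.04 and 0.39.

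By the likeness of group means over the 8 groups, each gene had different neighbours. The comparison covered 6420 probe sets with 1 matched gene and a span of at least 1. The genes most like AT1G76640 were AT3G17120 (r = 0.99), AT2G14290 (0.99), AT1G54020 (0.98), AT5G15070 (0.97) and AT5G01850 (0.97), whose differences between starved and fed wild type shoots ran from 1.40 to 5.36. In AT1G54020 the mean signal was 8.81 in starved wild type shoots and between 3.02 and 3.65 in the other 7 groups. The genes most like CML41 were AT3G17520 (0.97), UGT73C1 (0.96), AT1G78410 (0.95), LEA18 (0.95) and SAG29 (0.94). Of these, AT3G17520 and LEA18 had low signals, with group means of 2.93 to 4.06 and 2.95 to 4.41. Their differences between starved and fed wild type shoots were 0.95 and 0.94. UGT73C1 encodes a UDP-glucosyltransferase, LEA18 a late embryogenesis abundant protein and SAG29 the sugar transporter SWEET15. For UGT73C1 the difference was 2.18 between starved and fed wild type shoots, and 0.94 in phr1 and −0.95 in phr1 phl1 shoots against starved wild type.

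CBL1 was nearest to AT5G39670 (r = 0.96), AT1G23140 (0.96), AT1G25550 (0.95), AT4G33550 (0.95) and AT1G08310 (0.95). For AT1G08310 the difference between starved and fed wild type was 5.78 in shoots and 5.11 in roots, and against starved wild type shoots it was −2.17 in phr1 and −2.72 in phr1 phl1. CML38 was nearest to AT3G15810 (0.96), AT1G75400 (0.96), AT1G79660 (0.95), AT2G23120 (0.94) and AT5G45410 (0.93). For these 5 the difference between starved and fed wild type shoots ran from 1.14 to 1.88. Of each set of 5, 2 were also among the 5 nearest when the 24 arrays were used in place of group means. Likeness was computed over 8 points that share their arrays with the members; the genes were picked for their group means, so the differences given for them describe that choice and were not tested.

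**Figure D4:**
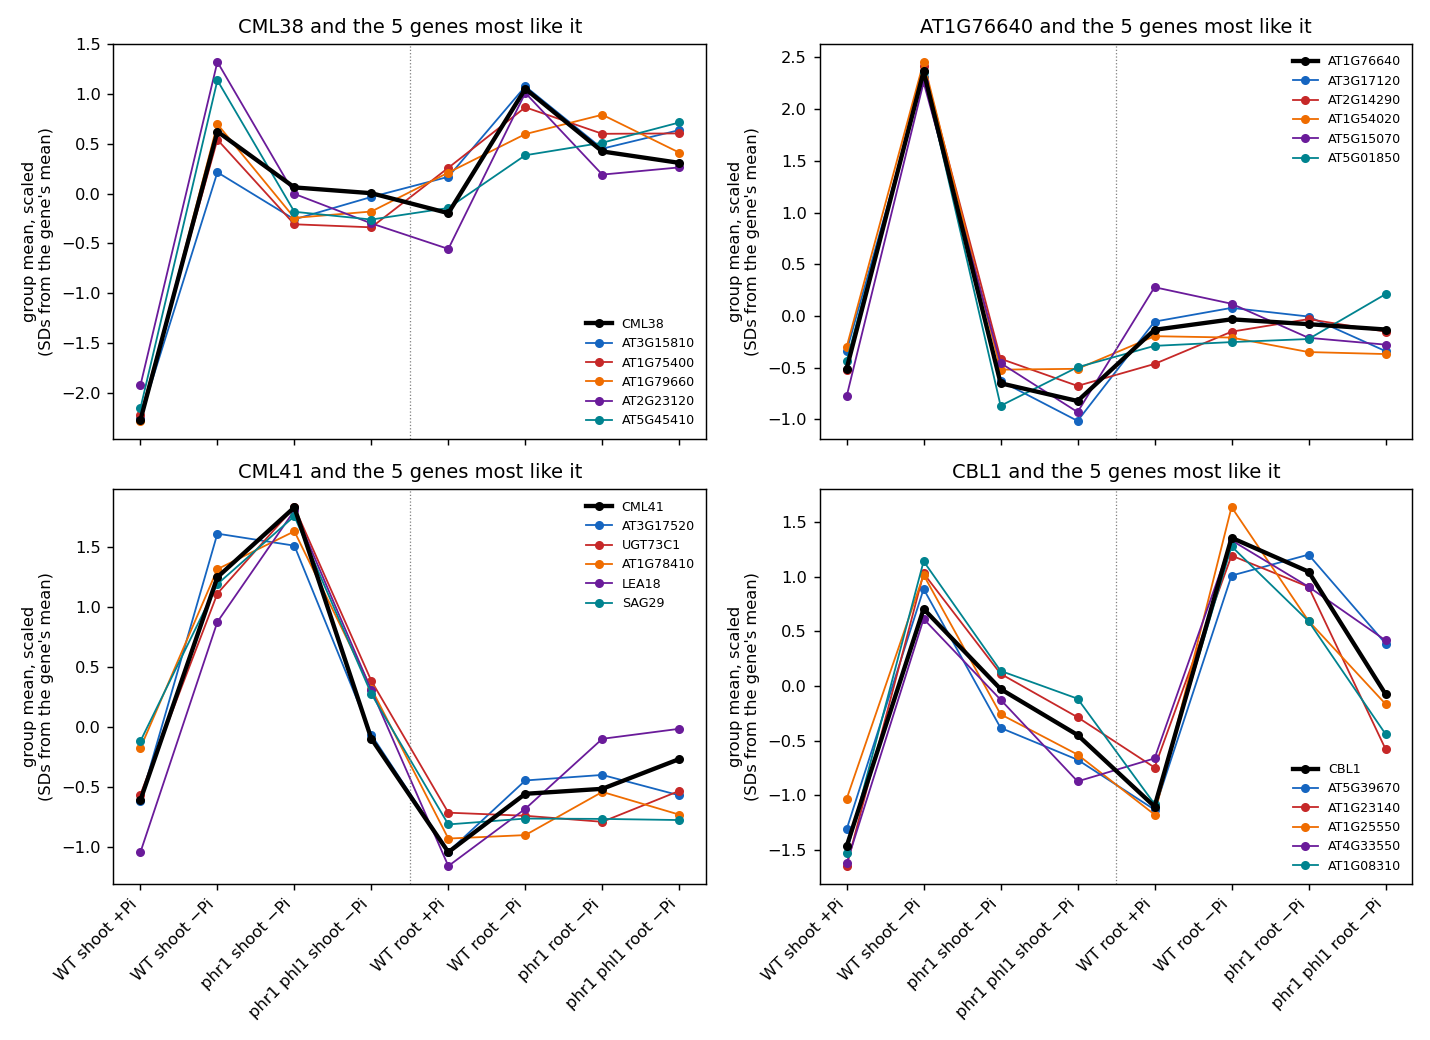
Group means of each gene (black) and of the 5 genes most like it (colours), scaled to each gene's mean and SD over the 8 groups (vertical axis, SDs from the gene's mean); groups are on the horizontal axis. AT1G76640 and its neighbours peak in starved wild type shoots, and CML41 and its neighbours peak in starved wild type and phr1 shoots.

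Other calmodulin-like genes were read from a list of 14, of which 9 had a matched probe set, the 3 members among them. In wild type shoots 5 of 9 were called higher (8.26% of all probe sets) and 0 lower, with a median of 1.66 beside −0.04 for all probe sets; without the 3 members 2 of 6 were called higher and the median was 0.25. These 2 were CML23 (3.78 ± 0.44 at +Pi and 5.47 ± 0.25 at −Pi, SD, n = 3) and CML43 (4.22 ± 0.29 and 5.88 ± 0.30), the latter named after its values were seen because it completes the count. Both fell back in the mutants in shoots: CML23 was at 3.86 in phr1 and 3.90 in phr1 phl1, and CML43 at 4.44 and 4.26. These falls passed the test in either mutant (CML23 −1.61 and −1.57, CML43 −1.44 and −1.61, adjusted p at most 0.00109). CML30 had the opposite sign, with −0.80 in starved wild type shoots (adjusted p = 0.00404, under the 2-fold limit) and a rise of 1.23 in phr1 phl1 shoots over starved wild type (adjusted p = 7.43e-05).

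In wild type roots 2 of 9 calmodulin-like genes were called higher (3.05% of all probe sets), CML23 by 1.38 (adjusted p = 0.0109) and CML37 by 1.23 (adjusted p = 0.0367), and 0 were called lower. CML37, a near relative of CML38 with a role in jasmonate and wound responses, had 2.71, 2.72 and 3.57 at +Pi, in order of size, and 3.62, 3.99 and 5.07 at −Pi. These are low signals, with means from 2.87 to 4.44 over the 8 groups, and detection above background was not analysed here. CML42, known from trichome branching, differed by 0.75 (adjusted p = 0.0341) and stayed under the 2-fold limit. CML43 had a lower mean at −Pi in roots (5.84 against 6.31, adjusted p = 0.13), the sign opposite to its change in shoots. In phr1 phl1 roots CML43 was 1.02 higher than in starved wild type roots (adjusted p = 7.80e-04); the 3 green tissue markers were 1.81 to 2.02 higher in the same arrays, and their part in this and in the CIPK values of phr1 phl1 roots was not tested.

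Among the proteins that work with these sensors, CIPK4 rose in both organs, as CBL1 did. Of 26 CIPK genes, 3 had a matched probe set. CIPK4 rose in wild type shoots from 4.41 ± 0.23 to 6.43 ± 0.15 (SD, n = 3) and in wild type roots from 5.95 ± 0.22 to 7.52 ± 0.31. It stood at 5.46 in phr1 shoots and 7.24 in phr1 roots, and at 4.71 and 6.28 in phr1 phl1, the latter differences from starved wild type being −1.73 and −1.24 (adjusted p = 1.25e-06 and 2.50e-04). CIPK23, the kinase known to act with CBL1 on a potassium channel, differed by −0.07 in wild type shoots and −0.80 in wild type roots (adjusted p = 0.89 and 0.083) and was 1.31 higher in phr1 phl1 roots than in starved wild type roots (adjusted p = 0.00377). SOS2, a kinase of salt tolerance, was called in 0 of the 8 main comparisons. CBL9 and CIPK1 had no matched probe set.

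Calcium transport showed a rise and a fall of single genes. Of 31 calcium pump and exchanger genes 3 were measured. CAX3, a calcium/proton exchanger of the vacuolar membrane, rose from 5.62 ± 1.16 to 8.81 ± 0.25 in wild type shoots and from 5.39 ± 0.21 to 8.37 ± 0.31 in wild type roots (SD, n = 3; 3.19 and 2.98, adjusted p = 8.28e-06 and 8.30e-05). In starved shoots its difference from wild type was −1.57 in phr1 and −3.06 in phr1 phl1 (adjusted p = 0.00839 and 1.13e-05). ACA4, a calcium pump of the vacuole, fell in wild type shoots from 8.40 ± 0.62 to 6.12 ± 0.39 (−2.28, adjusted p = 2.14e-05) and stood at 7.67 in phr1 and 8.23 in phr1 phl1 shoots, both above starved wild type past the test (adjusted p = 0.00127 and 4.63e-05). ACA3 was called in 0 of the 8 main comparisons.

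**Figure D5:**
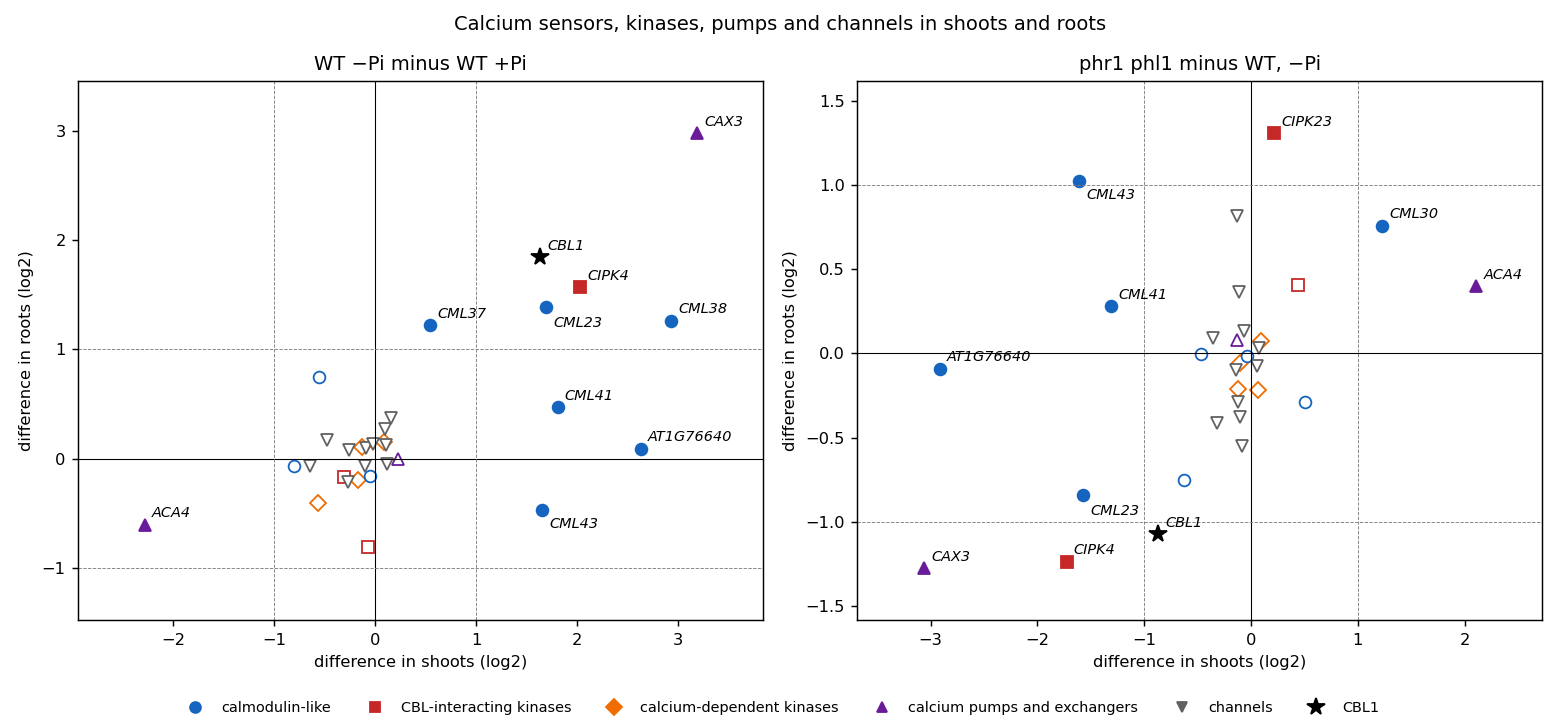
Difference in shoots (log2, horizontal axis) against difference in roots (log2, vertical axis) for measured calcium sensor, kinase, pump and channel genes; the left panel is wild type −Pi minus wild type +Pi and the right panel phr1 phl1 minus wild type at −Pi. Filled and named symbols were called in at least 1 of the 2 organs and dashed lines mark 2-fold. CBL1, CIPK4, CML23 and CAX3 lie to the upper right on the left panel and to the lower left on the right panel. CML38 lies at 2.93 in shoots and 1.26 in roots on the left panel. On the right panel it lies at −0.63 and −0.75 and was called in neither organ.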

How the data were processed

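RNA from shoots and roots was hybridized to Affymetrix ATH1 arrays, 24 in all. The authors deposited RMA-normalized signals on the log2 scale, background-corrected and summarized per probe set, and these were used as given; the software version is not given in the sources used here. Probe sets were named from the platform annotation (13513) or a supplementary locus column (666), and 64 control probe sets were left out. Differences were tested with limma 3.58.1 in R 4.3.3, with 8 group means fitted over 24 arrays and Benjamini-Hochberg adjustment over 22746 probe sets; called means over 2-fold with an adjusted p under 0.05. Organ differences in an effect are interaction contrasts. The script was tested on simulated data. Members and gene lists were chosen with earlier results of these data known. Named genes were the 4 members, the 5 probe sets with 1 gene nearest in group means to each, and listed calcium genes. Replicates of the labels were compared across groups: deviations of same-numbered arrays correlated from −0.59 to 0.65, and 4 of 28 group pairs had all 3 correlations over 0.1, of which 2 were compared here, starved wild type shoots with phr1 shoots (0.50, 0.65 and 0.43) and with wild type roots (0.27, 0.37 and 0.14). With the replicate block AT1G76640 stayed lower in phr1 shoots (−2.76, adjusted p = 7.02e-07), and in starved wild type roots against shoots AT1G76640 (−2.19, adjusted p = 3.44e-06) and CML41 (−1.76, adjusted p = 1.39e-05) stayed called.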

Additional observations from a re-analysis of the deposited data

Results flagged for a closer look

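For AT1G76640, 3 effects differed between the organs by limma's interaction contrast, given as roots minus shoots. The Pi starvation effect differed by −2.54 (95% interval −3.36 to −1.71, adjusted p = 1.33e-04), the phr1 effect by 2.72 (1.89 to 3.54, adjusted p = 5.47e-05) and the phr1 phl1 effect by 2.82 (2.00 to 3.65, adjusted p = 2.80e-05). All 3 contrasts share the starved wild type shoot and root arrays. For CML41 the Pi starvation effect differed by −1.33 (−2.06 to −0.61, adjusted p = 0.00976) and the phr1 phl1 effect by 1.59 (0.87 to 2.32, adjusted p = 0.00197). Among all probe sets 5.82% were called lower in the first of these contrasts, 6.18% higher in the phr1 contrast and 7.75% higher in the phr1 phl1 contrast.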

How the results depend on the processing

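Over the 8 main comparisons, 323 of 332 values of the 4 genes kept direction and call under other settings, and 177 of 192 with 1 array left out. With only the 2 groups compared, CML41 in phr1 phl1 against phr1 shoots was −1.88 and missed the threshold (adjusted p = 0.0904), and the count of genes called was 0. With the lowest 25% of probe sets left out AT1G76640 was not tested, and the shoot counts were 0 in phr1 and 1 in phr1 phl1. By adjusted p alone CBL1 was also called in phr1 shoots (−0.55), phr1 phl1 shoots (−0.87) and phr1 phl1 against phr1 roots (−0.84), with counts of 2 in phr1 shoots and 1 between the mutants in roots; at 1.5-fold and an adjusted p of 0.1 the last 2 were called (−0.87 and −0.84, count 1). With array weights CBL1 was −1.16 in phr1 phl1 shoots and called. Values near 0 turned sign: AT1G76640 in phr1 roots 0.0089 (quantile normalization within organ) and 0.0456 (array weights), AT1G76640 in phr1 phl1 against fed roots −0.0178 (quantile), and the organ differences 0.49 for CML38 in phr1 and 0.0858 for CBL1 in phr1 phl1 (array weights). The cause was not tested. No scaling moved the median of all probe sets by over 0.1, and the replicate block changed no call.

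With single arrays left out, root differences at −Pi against +Pi ran from 0.61 to 2.28 for CML38 and −0.0569 to 0.19 for AT1G76640 (count 1 to 2). Against starved wild type roots, phr1 ran from −0.14 to 0.11 for AT1G76640 and −0.0011 to 0.083 for CML41, and phr1 phl1 from −0.19 to 0.0595 for AT1G76640 and −1.25 to −0.92 for CBL1 (count 0 to 1); in shoots CBL1 in phr1 phl1 ran from −1.19 to −0.66. Between the mutants, CML38 ran from −0.31 to 0.26 in shoots and −0.61 to 0.38 in roots, and in roots AT1G76640 from −0.13 to 0.0291 and CML41 from −0.0328 to 0.53. Organ differences ran from −0.10 to 0.42 for CBL1 in Pi starvation, −0.46 to 0.42 and −0.59 to 0.37 for CML38 in phr1 and phr1 phl1, and −0.41 to 0.11 for CBL1 in phr1 phl1. Against fed roots, AT1G76640 ran from −0.0264 to 0.14 in phr1 and −0.0720 to 0.0518 in phr1 phl1, and CML38 from −0.0298 to 1.65 and −0.15 to 1.53; roots against shoots in phr1 phl1 ran from −0.44 to 0.12 for CML41 and −0.15 to 0.80 for CML38. Without replicate 1 of the phr1 phl1 roots CML41 passed against fed roots (1.04, adjusted p = 0.00599).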

Other observations

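Calcium-dependent protein kinases (CPK) and calcium-permeable channels were measured in part. Of 34 CPK genes 4 had a matched probe set, and 0 of 4 passed an adjusted p of 0.05 by limma in any of the 8 main comparisons; in wild type shoots 0 of 4 reached an unadjusted p of 0.05, with differences from −0.57 to 0.08, where 37% of all probe sets passed the adjusted p. Of 40 channel genes 11 were measured, and 0 of 11 were called in the 8 main comparisons; in wild type shoots 8.26% of all probe sets were called higher, and counts of 0 in lists this small are near that background. In wild type shoots 3 of 11 passed the adjusted p under the 2-fold limit, the glutamate receptor-like genes GLR3.5 (−0.65, adjusted p = 0.0236) and GLR3.6 (−0.27, adjusted p = 0.0458) and the cyclic nucleotide-gated channel gene DND1 (−0.48, adjusted p = 0.0360). DND1 was 0.81 higher in phr1 phl1 roots than in starved wild type roots (adjusted p = 0.00281). Its group means were 7.64 to 8.60 in shoots and 3.90 to 4.89 in roots, and the green tissue markers RCA, PSAE-1 and PSAN were higher in the same root arrays by 1.84, 2.02 and 1.81; their part in this value was not tested.

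Over the 8 group means, CML38 and CBL1 correlated with r = 0.83, and the other 5 pairs of members with r between 0.23 and 0.40; the points share their arrays, and the values are descriptions.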
